A study of Drosophila melanogaster with 4 samples.

Results

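The genes described here encode the 10 core glycolytic enzymes of BG3 cells from Pgi to PyK. They were taken by name, in pathway order, from the 8806 rows of genes and transposable element families in the table of normalized counts, and all 10 had a row. BG3 is an established fly (Drosophila melanogaster) line that came from larval central nervous system. The control cells, labelled as wild type, had been treated with dsRNA against Brown, an eye pigment gene. The knockdown cells had been treated with dsRNA against Cap-H2, a subunit of the chromosome-compacting complex condensin II. Both groups grew in medium that contained serum and insulin. A 30 min incubation with 20 µg of dsRNA was followed by 4 days of culture and RNA-seq, with 2 libraries in each group.

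Glycolysis splits glucose into pyruvate in the cytosol. Its upper steps (Pgi, Pfk, Ald1 and Tpi) rearrange, phosphorylate and cleave the sugar at the expense of ATP. Its lower steps (the Gapdh enzymes, Pgk, Pglym78, Eno and PyK) oxidise the cleaved sugar and return ATP and NADH. In flies the pathway is used heavily by glia and by growing larval tissues, and in many animal cells Pfk and PyK are the controlled steps. The genes of the 10 enzymes lie apart in the genome, with 3 on chromosome arm 2R, 4 on 3R, 2 on 2L and 1 on X.

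The libraries held 21539511 to 21935781 reads on gene and element rows. Cap-H2, the dsRNA target, had 880 and 873 normalized reads in the controls and 543 and 555 after knockdown, 62.7% of the control (log2 fold change -0.67, SE 0.06, limma adjusted p = 1.5e-05). The reduction was partial. Whether replicate libraries stem from separate cultures is not stated in the labels, so SDs measure only the spread between these libraries, which may be technical. The SE from limma rests on such spread too, but draws mostly on that of other rows (14.4 prior against 2 residual degrees of freedom). Of the marker genes of nervous tissue, 3 of the 6 listed neuronal genes had a value. The neuronal gene elav had 545 normalized reads in the control, while nSyb and brp had under 5 reads in every library. The 4 glial markers repo, moody, nrv2 and loco summed to between 15420 and 15590 normalized reads per library. These sums are uneven, with control means of 83.3 for repo, 5460 for moody, 3400 for nrv2 and 6571 for loco. The 5 measured haemocyte markers (srp, Hml, NimC1, eater and Pxn, of 6 listed) summed to 7486 and 7080 in the control libraries and to 6866 and 6991 after knockdown. Most of this was srp, with a control mean of 6190 normalized reads, while NimC1 had 6.94. Both knockdown sums lay below both control sums, but the groups overlapped for srp itself, with 6374 and 6006 in the control and 5928 and 6037 after knockdown. They overlapped for NimC1 too, while for Hml, eater and Pxn both knockdown libraries lay below both controls. Hml, a haemocyte protein of clot formation, had 313.3 ± 37.0 normalized reads in the control and 230.0 ± 12.2 after knockdown (n = 2 each, SD). The 2 muscle markers of 4 with a value summed to between 18.95 and 30.46, and the 2 neuroblast markers of 4 to between 18.01 and 28.54. The 4 fat body markers are not analysed here. No marker gene passed limma with the settings used throughout, in which Hml stood at -0.44 ± 0.11 (log2, SE) at an adjusted p of 0.10. Over the limma and edgeR alternatives its adjusted p ranged from 0.0021 without control library 2 to 0.45 without control library 1. It passed in limma without control library 2, with robust empirical Bayes (0.028) and with the replicate block (0.0033), and in edgeR with the block (0.0037). The part of these markers in the results was not tested. In such bulk samples fewer cells of a type and less RNA per cell cannot be told apart.

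The enzymes were chosen by their role in the pathway, and the pathway itself was selected on its normalized counts, which stood higher after knockdown in these same 4 libraries. The differences between groups are therefore given as a description, with no p-value for any enzyme, and nothing is inferred from them. A fold change here is a difference of group means of log2(normalized count + 1) with limma's SE.

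Together the 10 genes took 0.3978% and 0.3986% of the reads of the controls, counted over all gene and element rows, and 0.4339% and 0.4246% after knockdown. Both knockdown shares lay above both control shares, and their mean was 107.8% of that of the controls. Their summed normalized counts were 85375 ± 722 in the control and 94364 ± 765 after knockdown (n = 2 each, SD), so the knockdown stood at 110.5% of the control. Eno accounted for 21.1% of this increase, Gapdh2 for 19.9% and Ald1 for 18.6%. Pgk accounted for 1.1%, although it held 5.75% of the control reads of the 10 genes.

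As shares of all reads in the order of control libraries 1 and 2 and knockdown libraries 1 and 2, Eno took 0.0866%, 0.0886%, 0.0942% and 0.0940%. Gapdh2 took 0.0577%, 0.0579%, 0.0659% and 0.0632%, and PyK took 0.0560%, 0.0565%, 0.0580% and 0.0580%. Gapdh1 took 0.0529%, 0.0509%, 0.0542% and 0.0519%, so its groups overlapped on this scale, where knockdown library 2 lay below control library 1. Ald1 took 0.0467%, 0.0450%, 0.0534% and 0.0512%, with both knockdown libraries above both controls. The other 5 enzymes took shares from 0.0120% for Pglym78 in control library 1 to 0.0285% for Pfk in knockdown library 1.

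All 10 genes had a positive log2 fold change, with a median of 0.15, except that Pgk stood at -0.01 when counts were scaled to all reads. The median over the 7690 tested rows was -0.00, and 49.9% of these rows were positive. For 9 of the 10 enzymes both knockdown libraries lay above both controls, against 19.2% of all tested rows and 28.7% of the 1762 tested rows with a mean of at least 2000 normalized reads. In limma's fit of the whole table, 5 of the 10 were called higher at an adjusted p under 0.05, against 0.325% of all rows. Such calls were more frequent at high levels, with 17 among the 1752 other rows whose mean reached 2000 normalized reads. The 5 enzymes called were Pgi, Pfk, Ald1, Gapdh2 and Eno. Quantile normalization left only Ald1, and Eno was also lost with no minimum, with median centring, with edgeR, without control library 1 and without either knockdown library.

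**Figure D1:**
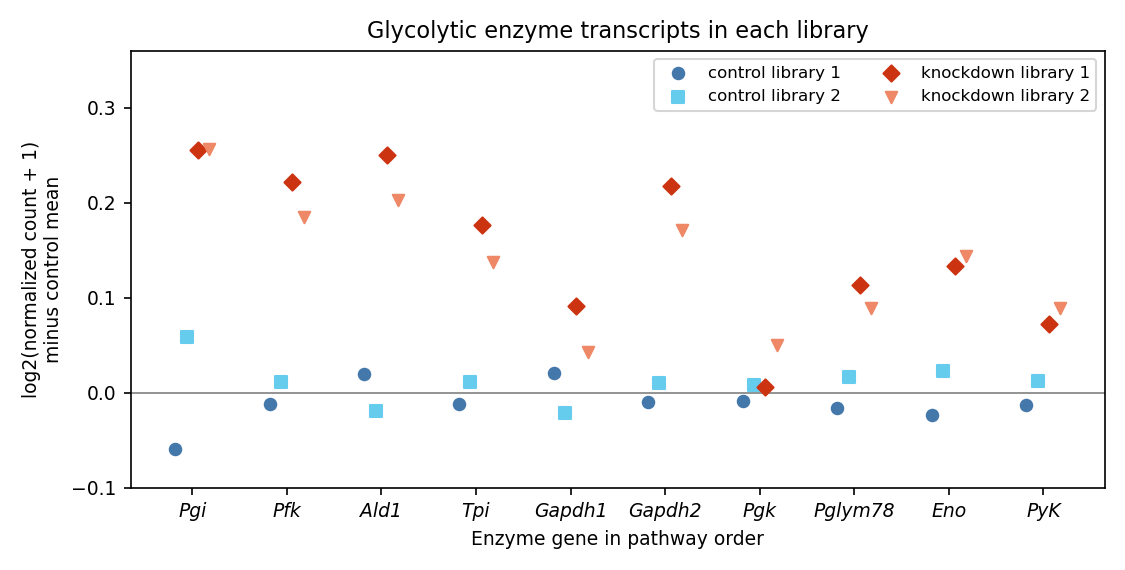
Each point is 1 library, plotted as log2(normalized count + 1) minus the mean of the control libraries (vertical axis), for the enzymes in pathway order (horizontal axis). Knockdown points lie above both control points for every gene except Pgk, with the widest control spread, 0.12, at Pgi.

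Pgi (FBgn0003074, chromosome 2R, 8910900 to 8914069, minus strand, dm6) encodes glucose-6-phosphate isomerase, which converts the glucose phosphate into the fructose phosphate. It had 4287 and 4653 normalized reads in the control libraries and 5331 and 5335 after knockdown. The groups did not overlap, and control library 1 was the lowest. The knockdown mean stood 19.3% above the control mean, a log2 fold change of 0.26 (SE 0.04), the largest of the 10. Leaving out control library 1 gave 0.20 and leaving out control library 2 gave 0.31.

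Pfk (FBgn0003071, chromosome 2R, 10109740 to 10117457, plus strand) encodes phosphofructokinase, which commits the sugar to glycolysis by a second phosphorylation. Its normalized counts were 5292 and 5377 in the control and 6222 and 6062 in the knockdown. The knockdown stood 15.1% higher, with a log2 fold change of 0.20 (SE 0.03) and no overlap between groups.

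Ald1 (FBgn0000064, chromosome 3R, 26254069 to 26261591, minus strand) encodes the aldolase that cleaves the bisphosphate into a pair of triose phosphates. It had 9959 and 9693 normalized reads in the control and 11685 and 11308 after knockdown. Library 1 was the higher of each group, and the knockdown mean was 17.0% above the control mean (log2 fold change 0.23, SE 0.03). With 10 annotated transcripts it has the most of the enzymes, and 338 of its 3809 bp of exon (8.87%) lie opposite an antisense RNA.

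Tpi (FBgn0086355, chromosome 3R, 30132981 to 30134599, minus strand) encodes the isomerase that interconverts the triose phosphates. It had 3850 and 3912 normalized reads in the control and 4385 and 4270 after knockdown. The groups did not overlap, and the knockdown stood 11.5% higher, with a log2 fold change of 0.16 (SE 0.03). The upper enzymes thus spanned fold changes from 0.16 to 0.26, with a median of 0.21.

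Gapdh1 and Gapdh2 encode glyceraldehyde-3-phosphate dehydrogenase, the step that yields NADH. Gapdh2 (FBgn0001092, chromosome X, 15868145 to 15869661, plus strand) had 12305 and 12475 normalized reads in the control and 14411 and 13955 after knockdown, 14.5% higher (log2 fold change 0.19, SE 0.03). Gapdh1 (FBgn0001091, chromosome 2R, 7791901 to 7793380, minus strand) had 11295 and 10970 in the control and 11861 and 11469 in the knockdown, 4.78% higher (log2 fold change 0.07, SE 0.03). The libraries of Gapdh1 did not overlap, but the gap between the groups, 0.02 on the log2 scale, was smaller than the difference of 0.04 between its control libraries. Without knockdown library 1 its fold change was 0.04 and without knockdown library 2 it was 0.09.

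Gapdh1 took 47.86% of the reads of the pair in control library 1 and 46.79% in control library 2, with 95% Wilson intervals of 47.23% to 48.49% and 46.15% to 47.43%. In the knockdown it took 45.15% (44.55% to 45.75%) and 45.11% (44.49% to 45.73%). The intervals cover counting error only. The control libraries differed by more than the knockdown libraries did, and both control values lay above both knockdown values. The mean share was 47.33% ± 0.757 for the control and 45.13% ± 0.0283 for the knockdown (n = 2 each, SD). Per kb of exon the level of Gapdh1 was 0.895 and 0.857 of that of Gapdh2 in the control libraries and 0.803 and 0.801 after knockdown, so Gapdh2 had the higher level in all 4 libraries. Summed over both genes, the normalized count was 23522 ± 110 for the control and 25848 ± 600 for the knockdown, 109.9% of the control. The coding sequences of the pair are closely related. Reads that aligned to both would have been placed in the row for alignments that were not unique, so the counts of each gene may miss such reads.

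**Figure D2:**
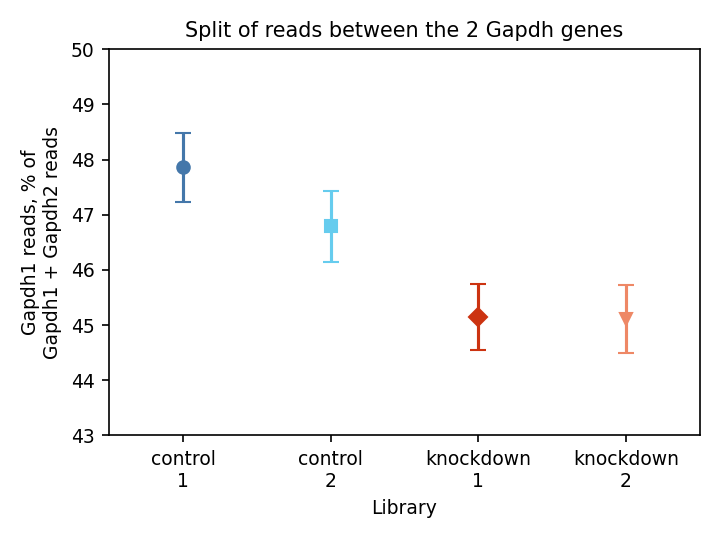
Share of Gapdh1 among the reads of Gapdh1 and Gapdh2 (vertical axis, percent, axis from 43 to 50) in each library (horizontal axis), with 95% Wilson intervals as bars. The control points are at 47.86% and 46.79% and the knockdown points at 45.15% and 45.11%.

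Pgk (FBgn0250906, chromosome 2L, 2746880 to 2753068, minus strand) encodes phosphoglycerate kinase, which makes ATP. Its normalized counts were 4884 and 4940 in the control and 4933 and 5088 in the knockdown. It was the only enzyme whose groups overlapped, since knockdown library 1 lay between the control libraries. The log2 fold change was 0.03 (SE 0.03), which was 0.01 without knockdown library 2, 0.05 without knockdown library 1 and -0.01 when counts were scaled to all reads. Of its 2112 bp of exon, 65 bp lie opposite Cwc25.

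Pglym78 (FBgn0014869, chromosome 3R, 29148248 to 29149901, plus strand) encodes phosphoglycerate mutase, which moves the phosphate within phosphoglycerate. Without scaling for length it had the fewest reads of the enzymes, 2556 and 2615 normalized reads in the control and 2798 and 2751 after knockdown. The groups did not overlap, and the knockdown stood 7.31% higher, with a log2 fold change of 0.10 (SE 0.04).

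Eno (FBgn0000579, chromosome 2L, 1724768 to 1729636, minus strand) encodes enolase, which forms phosphoenolpyruvate, and without scaling for length had the most reads of the enzymes. Its normalized counts were 18485 and 19088 in the control and 20599 and 20759 in the knockdown. The groups did not overlap, and the knockdown stood 10.1% higher (log2 fold change 0.14, SE 0.03). Its exons share 362 of 3718 bp (9.74%) with Rrp40 on the opposite strand, which had a mean of 319.3 normalized reads in the control and 314.6 after knockdown.

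PyK (FBgn0267385, chromosome 3R, 22367536 to 22372746, plus strand) encodes pyruvate kinase, which makes ATP and pyruvate at the end of the pathway. It had 11951 and 12164 normalized reads in the control and 12680 and 12825 after knockdown. The groups did not overlap, and the knockdown stood 5.76% higher (log2 fold change 0.08, SE 0.03). The lower enzymes thus spanned fold changes from 0.03 to 0.19, with a median of 0.09. The overlap of these 2 ranges comes from Gapdh2, whose value of 0.19 lay above that of Tpi.

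The differences between libraries of a group give the scale for these values. In the control, library 2 exceeded library 1 for 8 of the 10 enzymes, and the size of the difference ranged from 0.02 for Pgk to 0.12 for Pgi on the log2 scale. In the knockdown library 2 was higher for 4 of the 10, with sizes from 0.00 to 0.05. Counting error per library was between 0.01 and 0.03 on the same scale. Leaving out any library kept all 10 fold changes positive, and moved those of Gapdh1 and Pgk alone by over 1.5 times.

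In the authors' deposited table of fold changes, made with a tool not given in the sources used here, 5 of the enzymes had an adjusted p under 0.05, against 0.307% of all rows higher there. The authors' deposited table gives Pgi 0.22, Ald1 0.21, Gapdh2 0.18, Pfk 0.18 and Eno 0.12 on the log2 scale. It gives Tpi 0.067, PyK 0.0074, Pglym78 0.0043, Gapdh1 0.0029 and Pgk 0.00046, so in the authors' deposited table the last 4 stand close to 0. The ratios of the normalized counts for PyK, Pglym78 and Gapdh1 were 105.8%, 107.3% and 104.8% of the control.

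**Figure D3:**
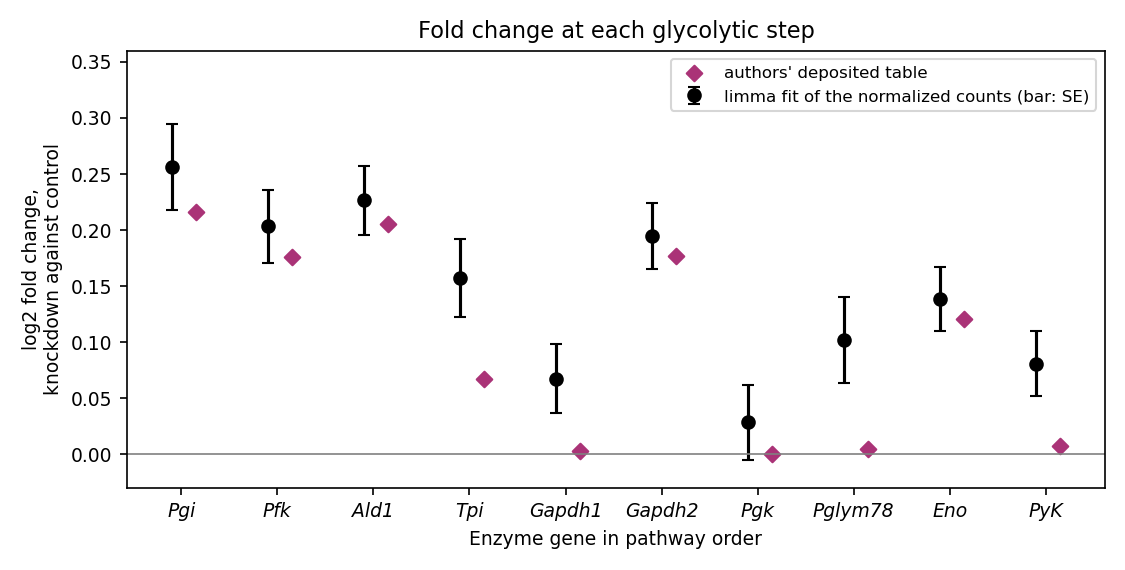
Log2 fold change of knockdown against control (vertical axis) for the enzymes in pathway order (horizontal axis). Black circles are limma's values with their SE, and purple diamonds are the values of the authors' deposited table, which lie below the circles for all 10 genes and near 0 for Gapdh1, Pgk, Pglym78 and PyK. The diamonds are not plain ratios of the counts, so circles and diamonds are unlike measures.

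Levels were compared between enzymes only per length, as normalized reads per kb of the union of annotated exons. In the control Gapdh2 was highest with 8586 ± 83.4 and Gapdh1 next with 7522 ± 156 (n = 2 each, SD). PyK with 5378 ± 67.3 and Eno with 5053 ± 115 followed. Ald1 had 2580 ± 49.4, Tpi 2491 ± 28.1, Pgk 2326 ± 18.7 and Pglym78 2276 ± 36.3 reads per kb. Pgi with 1817 ± 105 and Pfk with 1219 ± 13.7 were the lowest, and Gapdh2 stood 7.05 times above Pfk. Per kb, the NADH-yielding step and the last steps of the pathway thus had the most transcript and the phosphofructokinase step the least.

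No neighbours in this order overlapped in the control libraries, although Ald1 and Tpi differed by a ratio of only 1.036 and Pgk and Pglym78 by 1.022. Pgk and Pglym78 exchanged places in the knockdown, with 2372 ± 51.8 for Pgk and 2442 ± 29.0 for Pglym78 (n = 2 each, SD). They did not exchange places with the longest annotated transcript as length, where the knockdown had 2647 for Pgk and 2442 for Pglym78. For Pfk, Ald1, Tpi, Pgk, Eno and PyK the length used moved the control level by more than the SD of the control libraries. Ald1 went from 2580 to 3728 and Tpi from 2491 to 2825 with the longest annotated transcript, a ratio of 1.32 between them. With the longest annotated transcript as length Eno had 7052 and PyK 5717 normalized reads per kb in the control, so that their order turned, while Gapdh2 remained the highest and Pfk, with 1521, the lowest. The order of neighbours whose levels differ by less than such moves is therefore uncertain.

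**Figure D4:**
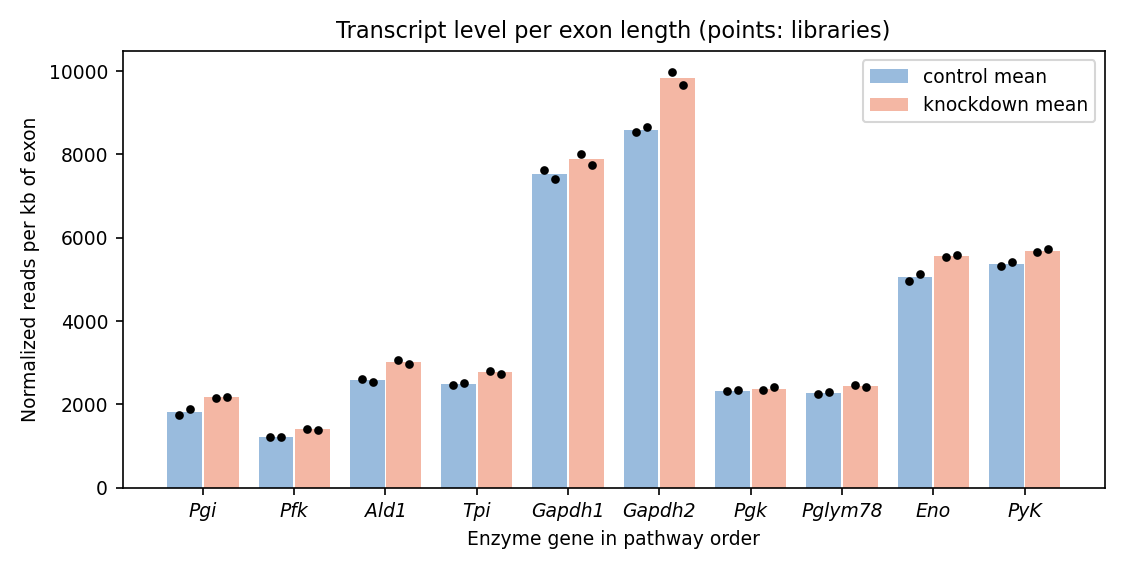
Normalized reads per kb of exon (vertical axis, from 0) for the enzymes in pathway order (horizontal axis). Bars are group means and points are libraries, with Gapdh2 at 8586 in the control and 9829 in the knockdown, and Pfk at 1219 and 1403.

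The enzymes around the core pathway were taken from 6 lists with 37 tested genes in all, chosen with earlier results of these data known. Of the 37, 3 rose and 0 fell at an adjusted p under 0.05 in limma's fit of the whole table, against 0.325% and 0.065% of all rows. An unadjusted p under 0.05 was found for 3 of the 37, the same 3. The share was similar over all tested rows, with 625 of 7690. On whole reads edgeR called these 3 and no other of the 37, and DESeq2 called 2 of them and no other, but gave no adjusted p for 19.

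Upstream, of the 5 tested genes of glucose entry (8 listed), Treh and Glyp rose, with a list median of 0.18. Treh, the trehalase that makes glucose from the blood sugar of insects, had 2088 and 2197 normalized reads in the control and 2578 and 2577 after knockdown (log2 fold change 0.27, SE 0.04, limma adjusted p = 0.0027). Glyp, glycogen phosphorylase, had 3508 and 3471 in the control and 3952 and 3964 in the knockdown (0.18, SE 0.03, adjusted p = 0.022). For Glyp the adjusted p was 0.060 without knockdown library 1, 0.088 without knockdown library 2 and 0.15 with quantile normalization. Hex-A, the hexokinase that feeds Pgi, had 8614 and 8432 normalized reads in the control and 8975 and 8727 after knockdown. Its log2 fold change was 0.05 (SE 0.03, adjusted p = 0.68).

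Downstream, Ldh, which turns pyruvate into lactate and regenerates NAD, rose from 17303 and 18919 normalized reads in the control to 21105 and 22827 in the knockdown (log2 fold change 0.28, SE 0.04, limma adjusted p = 0.0019). The adjusted p of Ldh was 0.22 with robust empirical Bayes and 0.055 with DESeq2. It was the only 1 of 7 genes for the fate of pyruvate to pass, and the median of that list was -0.03. The subunits Pdha and Pdhb of pyruvate dehydrogenase, which sends pyruvate into the mitochondrion's cycle, had log2 fold changes of -0.01 (SE 0.04) and -0.03 (SE 0.05). Mpc1, a subunit of the carrier that brings pyruvate into the mitochondrion, had -0.14 (SE 0.08, adjusted p = 0.69).

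Of the 16 enzymes of the tricarboxylic acid cycle, 0 passed limma, 0 had an unadjusted p under 0.05 and 0 were called by edgeR or DESeq2. Over all tested rows 625 of 7690 had an unadjusted p under 0.05 in limma. DESeq2 gave no adjusted p for Idh3b, ScsbetaG, SdhC and SdhD, so it could not call them. The median fold change of the 16 was 0.00, with values from -0.08 for SdhB to 0.08 for Idh3g. For 3 of the 16 (18.8%) both knockdown libraries lay above both control libraries, which is near the 19.2% of all tested rows. In the 2 knockdown libraries the median of the cycle stood at 0.010 and -0.002 relative to the control mean on the log2 scale, while that of the 10 glycolytic enzymes stood at 0.155 and 0.141. Ogdh, with the most reads of the list and a subunit of oxoglutarate dehydrogenase, had 5287 ± 11.7 normalized reads in the control and 5310 ± 30.7 after knockdown (n = 2 each, SD).

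No gene passed of the 4 tested for gluconeogenesis and fructose bisphosphate signalling, with a median of 0.08, or of the 3 of the glycerol phosphate branch, with a median of 0.07. Pfrx, the kinase and phosphatase that sets the activator of Pfk, had 0.09 (SE 0.06, adjusted p = 0.69), and Gpo1, the mitochondrial glycerol phosphate oxidase, 0.11 (SE 0.06, adjusted p = 0.62). Of the 9 listed further copies of the enzymes, 2 were tested, and neither passed. CG7069, a pyruvate kinase copy, had 46.8 and 43.5 normalized reads per kb of exon in the control libraries, against 5330 and 5426 for PyK. CG9961, a phosphoglycerate kinase copy, had 19.1 and 22.2 per kb against 2312 and 2339 for Pgk. Among the copies with a value here, PyK and Pgk thus had by far the higher levels.

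**Figure D5:**
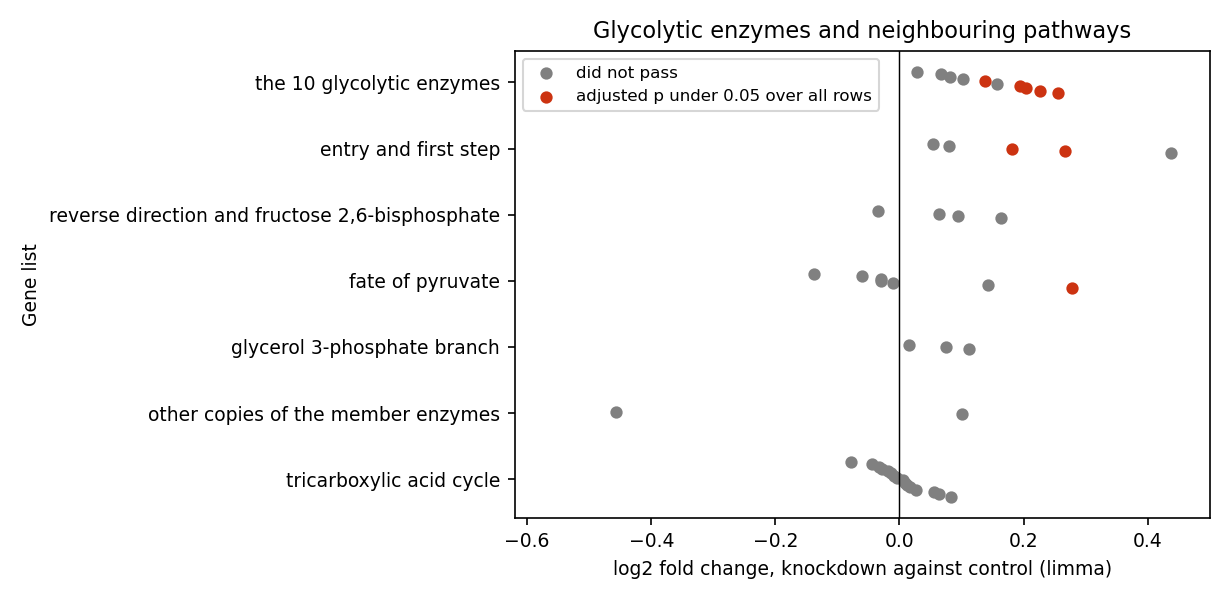
Log2 fold change of each tested gene (horizontal axis) for the 10 glycolytic enzymes and 6 neighbouring lists (vertical axis), with genes past an adjusted p of 0.05 over all rows in red. The genes of the tricarboxylic acid cycle lie between -0.08 and 0.08, and the 10 enzymes between 0.03 and 0.26.

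The 5 non-member genes with the most similar profile over the 4 libraries were CG8728, Plod, CG14629, RhoGAP71E and ValRS. The measure was the root mean square difference between log2 profiles centred on their own mean, taken against the mean profile of the 10 enzymes, over 3050 genes with a mean of at least 1000 normalized reads. It was 0.0078 for CG8728, 0.0083 for Plod and between 0.011 and 0.015 for the others, against a median of 0.077 over all 3050. Among the enzymes themselves it ranged from 0.0095 for Tpi and 0.014 for Eno to 0.065 for Pgi and 0.062 for Pgk, so Pgi and Pgk lay farthest from the common profile, on its high and its low side. Only 4 libraries enter this measure, and most of it is the difference between the groups.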

How the data were processed

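Reads were processed with fastp, HISAT2 and HTSeq on build dm6, per the submitters' processing notes. For these the version, annotation and strand setting are not given in the sources used here. Library preparation used a stranded kit for mRNA, per the labels' protocols. The deposited table held normalized counts, a signal of reads divided by the authors' size factor per library. At a tolerance of 0.001 reads, 100% of values were whole multiples of the smallest in their column, and these multiples were taken as reads. The 3 special rows (11.5% to 13.9% of reads) were left out. The authors also deposited log2 fold changes with p-values.

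Annotation was Ensembl BDGP6.54 (dm6 coordinates). limma 3.58.1 in R 4.3.3 (two-sided, empirical Bayes, mean trend) was run on log2(normalized count + 1) over the 7690 rows whose mean reached 10. P-values were adjusted by Benjamini-Hochberg over these rows, and calls were made at 0.05. The fit had 2 residual degrees of freedom plus 14.4 from limma's prior. By exact permutation, 2 against 2 libraries give no p below 0.333. The fit was tested on simulated data. No libraries were duplicates (chi-square over degrees of freedom 5.09 in the control pair and 2.96 in the knockdown pair). Alternatives included edgeR 4.0.16 and DESeq2 1.42.0 on whole reads, which called 28 and 40 rows.

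The members and lists were chosen with earlier results of these data known. The genes named were the 10 enzymes, Cap-H2, the called members of each related list or else its most abundant member, and the 5 nearest profiles. Further genes (nSyb, brp and the other markers, Hex-A, Pdha, Pdhb, Mpc1, SdhB, SdhC, SdhD, ScsbetaG, Idh3b, Idh3g, Ogdh, Pfrx, Gpo1, CG7069, CG9961 and Rrp40) were named for their role or after their values were seen. Listed genes with no value are not analysed here.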

Additional observations from a re-analysis of the deposited data

How the results depend on the processing

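Over 17 alternatives for each of the 10 enzymes, 169 of 170 log2 fold changes were positive. The exception was Pgk at -0.01 when counts were scaled to all reads, an alternative added after the data were seen that moved each enzyme by about 0.04 or less. For the enzymes with small fold changes this was a large part, as Gapdh1 went from 0.067 to 0.031 and PyK from 0.081 to 0.045. With quantile normalization 1 of the 10 was called (Ald1) and 14 genes in all, and for neither was the cause tested. The other settings called 4 to 6 of the 10, with Eno lost without control replicate 1, without either knockdown replicate, with no minimum, with median centring and with edgeR. Tpi was gained with the replicate block in limma and edgeR, with robust empirical Bayes and without control replicate 2. Over all rows robust empirical Bayes gave 59 calls against 30, and leaving out a replicate gave from 41 (without knockdown replicate 2) to 127 (without control replicate 2). These fits assume that a group's single library varies as the other group does. The labels do not say that a replicate number marks a shared batch, so the numbers were not used to pair samples. Deviations of same-numbered libraries had a correlation of -0.027 over all tested rows. Rows with few reads weigh as much as others in it, so it does not settle whether a batch was shared. The replicate block gave 146 calls, and 160 in edgeR with the block, an alternative added after the data were seen. The related genes kept 2 or 3 calls throughout. The summed share of reads was 0.346% (control) and 0.3775% (knockdown) with the special rows in the total. It was 0.5318% and 0.5826% without element rows and the 22 rows matched to neither a gene nor an element family. DESeq2 gave no adjusted p for 5367 rows.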
